A study of Caenorhabditis elegans with 24 samples.

Results

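Touch receptor neurons are the mechanosensory cells with which the nematode Caenorhabditis elegans feels gentle touch along its body, and 10 genes known from these cells were followed here: mec-2, mec-3, mec-4, mec-6, mec-7, mec-10, mec-12, mec-17, mec-18 and unc-86. Every probe set whose only gene symbol in the array annotation was one of these names was taken, which gave 12 of the 22548 probe sets tested: 2 for mec-2, 2 for mec-7 and 1 for each other gene. Neuronal RNA was compared with reference RNA on Affymetrix C. elegans arrays, in 24 samples of 19 independent hybridizations. The embryonic pan-neural sample (3 arrays) was total RNA of GFP-positive cells sorted from NW1229 embryos (evIs111, F25B3.3::GFP), whose dissociated cells had been in culture for 24 hours, with about 90% of the sorted cells marked. Its reference (4 arrays) was an earlier profile of all viable cultured embryonic cells. The larval pan-neural sample (3 arrays) was RNA pulled down with FLAG::PAB-1, a tagged poly(A)-binding protein, from L2 larvae of SD1241 (gaIs153, F25B3.3::FLAG::PAB-1). The larval A-class sample (4 arrays) was pulled down in the same way from L2 larvae of NC694 (wdEx257, unc-4::3XFLAG::PAB-1), in which the tag is made mainly in excitatory cholinergic motor neurons of the ventral cord and also in a pharyngeal neuron. The reference of both larval samples (5 arrays) was RNA that bound without a tag in mock pull-downs from wild type (N2) L2 larvae.

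The products of these genes act together in a single cell type. UNC-86, a POU homeodomain protein used in many neuron classes, turns on mec-3, and the LIM homeodomain protein MEC-3 acts with UNC-86 to turn on the genes that give the cell its touch-sensing features. MEC-4 and MEC-10 are subunits of the DEG/ENaC channel that opens on touch, and MEC-2, a stomatin-like protein, and MEC-6, a paraoxonase-like protein, are needed for its activity. MEC-7 (β-tubulin) and MEC-12 (α-tubulin) form the thick microtubules of the touch neuron process, MEC-17 acetylates α-tubulin, and MEC-18 resembles acyl-CoA synthetases. Several of these genes are also used elsewhere: mec-12 in further neurons, mec-3 and mec-10 in other mechanosensory neurons, and mec-6 more widely. Some touch receptor neurons are born in the embryo and others after hatching.

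The deposited intensities had been normalized separately in 3 sets, 1 for each neuronal sample and its reference, the 5 larval reference hybridizations being used in 2 of them. Levels were therefore compared only within a set, except in an alternative with joint quantile normalization. Enrichment means here the log2 difference between a neuronal sample and the reference of its own set. A probe set passed the test at an adjusted p under 0.01 in limma and a change of at least 1.5-fold. Median intensities of the arrays lay between 47.9 and 64.2. Of the 16 probe sets of pan-neuronal markers 2 passed upward in sorted embryonic neurons, 11 with the larval pan-neural tag and 3 with the A-class tag. Over all probe sets tested these shares were 1.96%, 6.08% and 0.776%. The marker rgef-1, the gene whose promoter (F25B3.3) drove both pan-neural tags, lay near the floor of the array at a mean log2 intensity of 3.26 to 3.95 in every group. The A-class label was checked on unc-4 itself, which was enriched by 3.14 ± 0.18 (SE, log2, adjusted p = 3.88e-05) there and by 1.45 ± 0.15 in the larval pan-neural sample. Of 10 probe sets of A-class and cholinergic markers, unc-4 among them, 6 passed upward with the A-class tag and 9 with the larval pan-neural tag. In a direct test 2 of them, both of cha-1, were more enriched with the pan-neural tag (1.85 and 1.98), and 1, unc-4, less (-1.69). Over all probe sets these shares were 3.76% and 1.95%. Markers of GABA neurons passed for 3 of 4 probe sets in the larval pan-neural sample and for none of 4 in the A-class sample. Markers of other tissues passed downward in the larval pan-neural sample against its reference for 5 of 10 intestine, 2 of 8 hypodermis, 1 of 14 body wall muscle and 1 of 6 germline probe sets, beside 3.34% of all. The mean log2 intensity of the muscle probe sets per array was 9.72 to 10.2 in that reference and 8.70 to 9.55 in the pan-neural sample, and the part of such RNA in the enrichments below was not tested.

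The larval pan-neural sample was compared with its reference to ask which touch receptor neuron transcripts the pull-down from all neurons recovered in excess. All 10 genes passed upward, from 1.83-fold for mec-10 to 7.61-fold for mec-17. Of the 12 probe sets 11 passed upward, against 6.08% of all probe sets tested, and none passed downward, against 3.34%. The study lists all 10 genes as enriched in these same larval pan-neural arrays, so this count is not independent evidence. The median enrichment of the 12 was 1.48 on the log2 scale, beside 0.00 over all probe sets. On every member probe set the 3 pan-neural arrays lay above the 5 references, a separation that 12.5% of all probe sets showed. In such bulk samples fewer touch neurons and less of a transcript per touch neuron cannot be told apart.

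**Figure D1:**
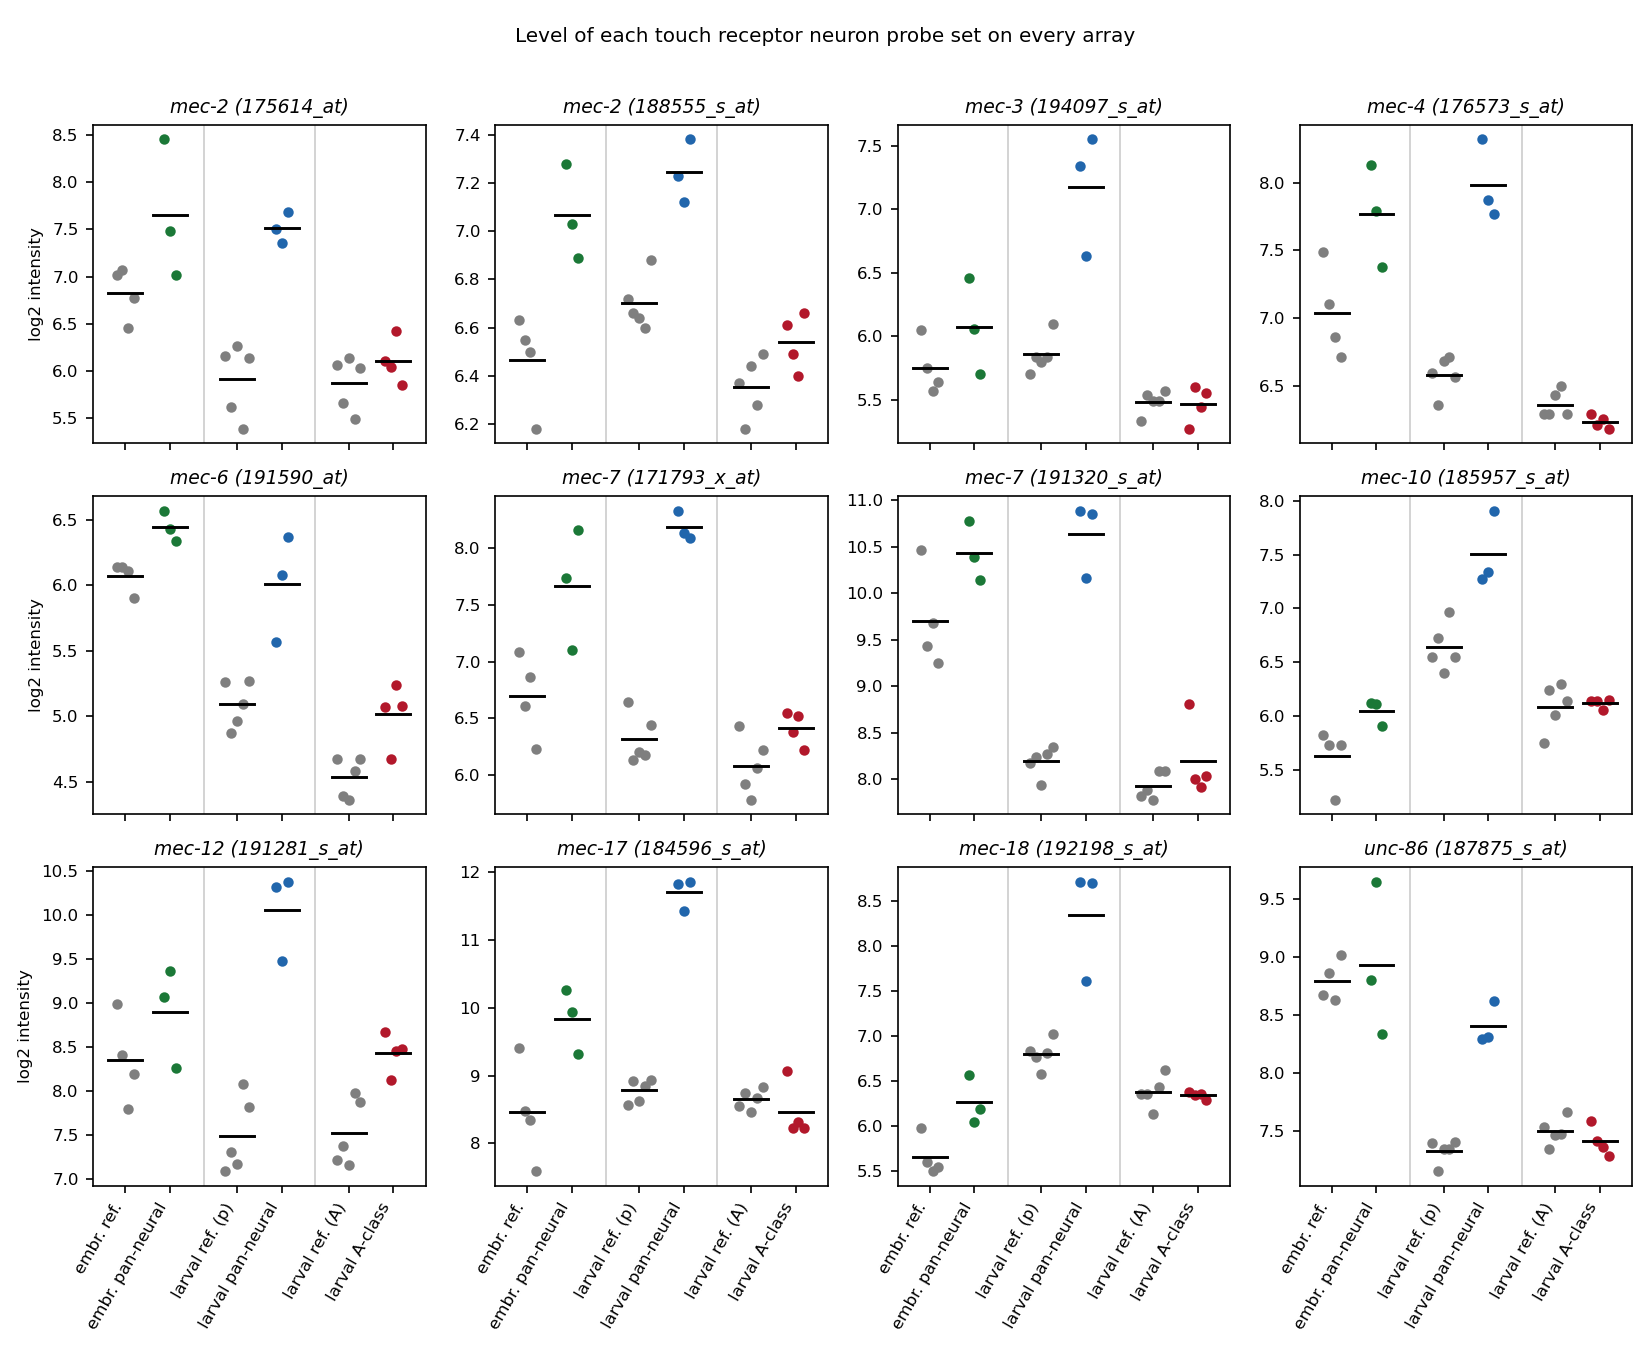
Log2 intensity (y axis) of each of the 12 probe sets on every array, in the 6 groups of samples; points are arrays, black lines group means, and grey verticals part the 3 sets that were normalized separately, where (p) and (A) name the larval reference as normalized with the pan-neural and with the A-class arrays. The 3 larval pan-neural arrays lie above their 5 references on all 12 probe sets, and the A-class arrays overlap or touch the range of theirs on all but mec-12.

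Both transcription factor genes were enriched in the larval pan-neural sample. unc-86 had log2 intensities of 8.29, 8.31 and 8.62 on the 3 pan-neural arrays and of 7.39, 7.15, 7.34, 7.34 and 7.40 on references 1 to 5. The pan-neural values were close to each other and far above the reference range, and the difference was 1.08 ± 0.11 (SE, adjusted p = 0.00019), or 2.12-fold. mec-3 read 7.34, 6.63 and 7.55 against 5.70, 5.84, 5.80, 5.84 and 6.10. Its second pan-neural replicate was the lowest and still above every reference, and the difference of 1.32 ± 0.19 (adjusted p = 0.00158) corresponds to 2.49-fold.

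The channel genes and those of its partners passed on all but 1 probe set, with mec-6 and mec-10 at the low end of the list. mec-4, the core channel subunit, read 8.32, 7.87 and 7.77 on the pan-neural arrays and 6.59, 6.36, 6.68, 6.71 and 6.56 on the references, a difference of 1.41 ± 0.14 (adjusted p = 0.000172, 2.66-fold). The groups stood more than 1 log2 unit apart. mec-10, the other subunit, read 7.27, 7.34 and 7.91 against 6.55, 6.73, 6.40, 6.97 and 6.55, and passed with 0.87 ± 0.18 (adjusted p = 0.00811). The gap between its lowest pan-neural array and its highest reference was the smaller of both subunits. mec-6 had 5.57, 6.08 and 6.37 against 5.26, 4.87, 4.96, 5.09 and 5.27, with a difference of 0.92 ± 0.18 (adjusted p = 0.0066) and its first pan-neural replicate just above the references.

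The 2 probe sets of mec-2 gave different sizes of enrichment. On 175614_at the pan-neural arrays read 7.50, 7.35 and 7.68 and the references 6.16, 5.62, 6.27, 5.39 and 6.14, for a difference of 1.59 ± 0.21 (adjusted p = 0.000777, 3.02-fold). On 188555_s_at, a design shared by several transcripts, they read 7.23, 7.12 and 7.38 against 6.72, 6.66, 6.64, 6.60 and 6.88. The latter difference of 0.55 ± 0.10 had an adjusted p of 0.00517 but amounted to 1.46-fold, so this was the only member probe set that did not pass. The enrichments of the pair differed by 1.05, which has p = 0.0179 in a two-sided exact permutation test over the 8 arrays, the smallest p it allows, and p = 0.107 after Benjamini-Hochberg adjustment over 6 such comparisons.

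Genes of the microtubule bundle were the most enriched members. mec-17 had log2 intensities of 11.82, 11.43 and 11.86 on the pan-neural arrays and of 8.57, 8.92, 8.63, 8.85 and 8.93 on the references. Its difference of 2.93 ± 0.14 (adjusted p = 5.57e-06) amounted to 7.61-fold, with an interval from 2.62 to 3.23. No pan-neural value came within 2 log2 units of any reference. mec-12 read 10.32, 9.48 and 10.38 against 7.09, 7.31, 7.17, 8.08 and 7.82, a difference of 2.57 ± 0.28 (adjusted p = 0.000285, 5.95-fold). References 4 and 5 were the highest of the 5 for mec-12, and they shared a hybridization day with pan-neural replicates 2 and 3.

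For mec-7 both probe sets passed. On 191320_s_at the pan-neural arrays read 10.89, 10.17 and 10.85 and the references 8.18, 8.24, 7.94, 8.27 and 8.35, with an enrichment of 2.44 ± 0.17 (adjusted p = 3.05e-05, 5.43-fold). On 171793_x_at, whose suffix warns of cross-hybridization, the values were 8.33, 8.13 and 8.09 against 6.64, 6.13, 6.20, 6.18 and 6.44, with an enrichment of 1.86 ± 0.13 (adjusted p = 3.23e-05, 3.64-fold). The 2 enrichments differed by 0.58, within what rearranged arrays also gave (exact permutation p = 0.0714, adjusted p = 0.214). mec-7 and mec-12 belong to tubulin families of similar sequence, and signal from other tubulin transcripts on these probe sets was not tested. mec-18 read 8.72, 7.62 and 8.71 against 6.84, 6.77, 6.58, 6.81 and 7.02, a difference of 1.55 ± 0.24 (adjusted p = 0.00202, 2.92-fold), with the second pan-neural replicate well below the other pair.

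Hybridization day touched this comparison, since 2 pan-neural arrays (replicates 2 and 3) and 2 references (4 and 5) were run on a single day and the other arrays on other days. Within that day all 12 probe sets kept their direction, with differences of 2.76 for mec-17, 2.20 and 1.80 for mec-7, 1.99 for mec-12, 1.75 and 0.51 for mec-2, 1.25 for mec-18, 1.19 for mec-4, 1.12 for mec-3, 1.10 for unc-86, 1.04 for mec-6 and 0.87 for mec-10. With 4 arrays left none of the 12 passed, the lowest adjusted p being 0.0141 for mec-17 in limma, 11 of them falling short by p alone, and 0 of all probe sets passed. With day as a random block 11 passed, as before. Calls near the threshold were lost when 1 array was left out. mec-6 was lost without larval pan-neural replicate 2 or 3 or any of references 1 to 4 (adjusted p up to 0.0302 in limma). mec-10 was lost without any array except reference 4 (up to 0.0307). mec-18 was lost without pan-neural replicate 1 or 3 (0.0125 and 0.0133) and mec-3 without pan-neural replicate 1 (0.0108). Over these fits the difference ran from 0.73 to 1.13 for mec-6 and from 0.66 to 0.99 for mec-10. mec-2 (188555_s_at) passed without pan-neural replicate 2 or reference 5, at 0.61 and 0.59. After joint quantile normalization this probe set passed too, at 0.588 (adjusted p = 0.004 in limma), while mec-6 did not, at 0.90 (adjusted p = 0.0113).

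**Figure D2:**
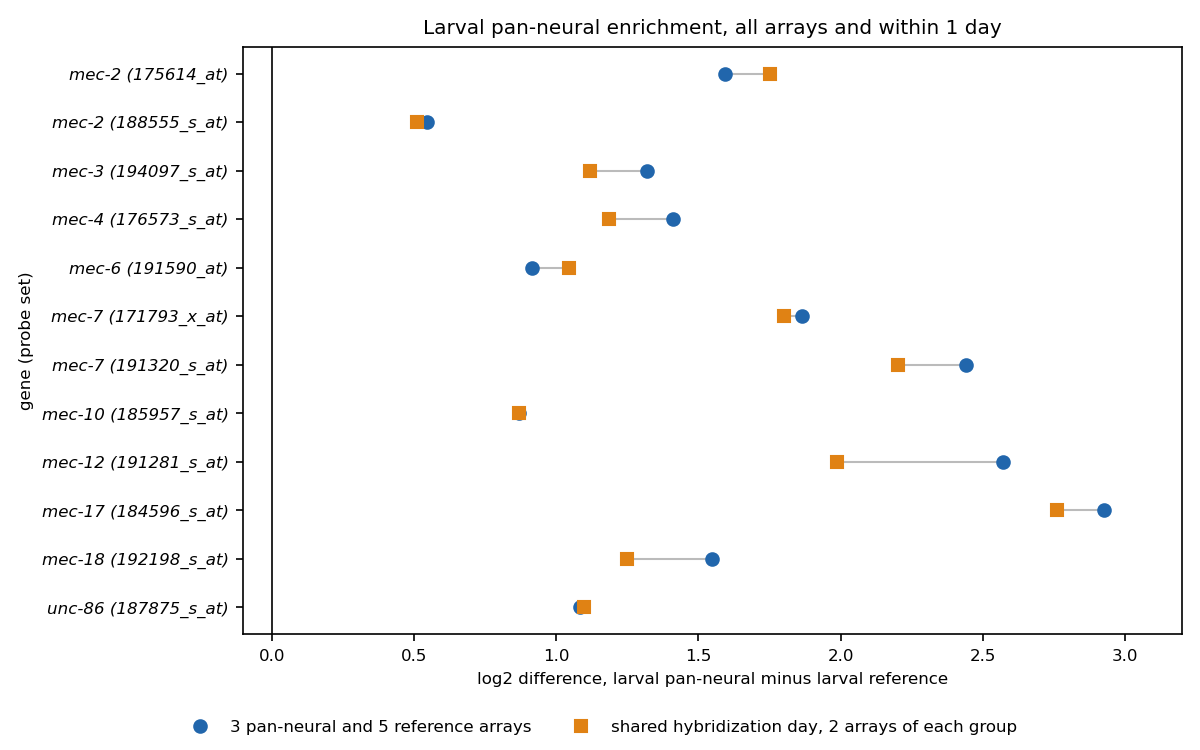
Enrichment in the larval pan-neural sample (x axis, log2 difference from the larval reference) of each probe set, from all 8 arrays (blue circles) and from the 4 arrays of the shared hybridization day (orange squares). Every pair lies to the right of 0, and the largest shift is that of mec-12, from 2.57 to 1.99.

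In the embryonic pan-neural sample the same genes leaned upward without passing. All 12 differences from the reference of all cultured cells were above 0, from 0.13 for unc-86 to 1.39 for mec-17, with a median of 0.61 beside 0.04 over all probe sets. None of the 12 passed in limma, where 1.96% of all probe sets passed upward and 2.78% downward. At an unadjusted p under 0.05 there were 9 of 12 above the reference, against 15.5% of all probe sets. The 3 sorted samples lay above all 4 references for 5 of the 12, against 15.3% of all.

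mec-17 had the largest embryonic difference and also a wide spread. Its sorted samples read 10.26, 9.94 and 9.32 and its references 9.41, 8.48, 8.35 and 7.59, so that embryonic pan-neural replicate 3 lay just below embryonic reference 1. The difference was 1.39 ± 0.41 (SE, adjusted p = 0.0615), or 2.62-fold with an interval of 0.43 to 2.34 on the log2 scale. mec-7 read 10.78, 10.39 and 10.14 against 10.47, 9.43, 9.68 and 9.25 on 191320_s_at, a difference of 0.73 ± 0.30 (adjusted p = 0.147), and had 0.97 ± 0.28 (adjusted p = 0.0586) on 171793_x_at. On both probe sets of mec-7, reference 1 was the highest of the 4 references.

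mec-12 differed least of the microtubule genes, with 9.07, 9.36 and 8.26 against 8.99, 8.41, 7.80 and 8.19. Its difference of 0.55 ± 0.34 had an interval from -0.23 to 1.33 (adjusted p = 0.305). For the channel, mec-4 read 8.13, 7.79 and 7.38 against 7.49, 7.10, 6.86 and 6.71, and differed by 0.73 ± 0.23 (adjusted p = 0.0777). The mec-4 groups overlapped through sorted replicate 3 and reference 1 alone. mec-2 differed by 0.82 ± 0.33 on 175614_at and by 0.60 ± 0.15 on 188555_s_at, and the latter had the lowest adjusted p of the members in this comparison, 0.0341.

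Of the remaining members mec-18 read 6.57, 6.05 and 6.19 against 5.98, 5.60, 5.50 and 5.55, with no overlap and a difference of 0.61 ± 0.17 (adjusted p = 0.0522). mec-10 (0.42 ± 0.16) and mec-6 (0.37 ± 0.11) also had separate groups with adjusted p of 0.128 and 0.064. The regulators were nearest to 0: mec-3 differed by 0.32 ± 0.20, and unc-86 read 8.80, 9.65 and 8.33 against 8.67, 8.86, 8.63 and 9.02, with 1 sorted replicate each above, within and below the reference range. For unc-86 the difference of 0.13 ± 0.29 turned to -0.23 without embryonic pan-neural replicate 2.

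The sorted replicates differed among themselves over the whole list. The mean enrichment of the 12 probe sets was 0.90 in replicate 1, 0.66 in replicate 2 and 0.35 in replicate 3, beside 1.66, 1.32 and 1.79 in the larval pan-neural replicates. In embryonic replicate 3 only 9 of the 12 exceeded the reference mean, while all 12 did in each other pan-neural array of both stages. No hybridization day held both embryonic groups, and neither did a chip lot, which leaves the group inseparable from day and lot. Of 14 body wall muscle marker probe sets 7 passed downward in the sorted cells, against 2.78% of all probe sets. Their mean log2 intensity per array was 6.02 to 6.21 beside 7.39 to 7.98 in the reference. Of the hypodermis probe sets 1 of 8 passed downward, while 1 of 10 intestine probe sets passed upward, against 1.96% of all, and none of 6 germline probe sets passed. The part of these tissues in the values above was not tested.

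**Figure D3:**
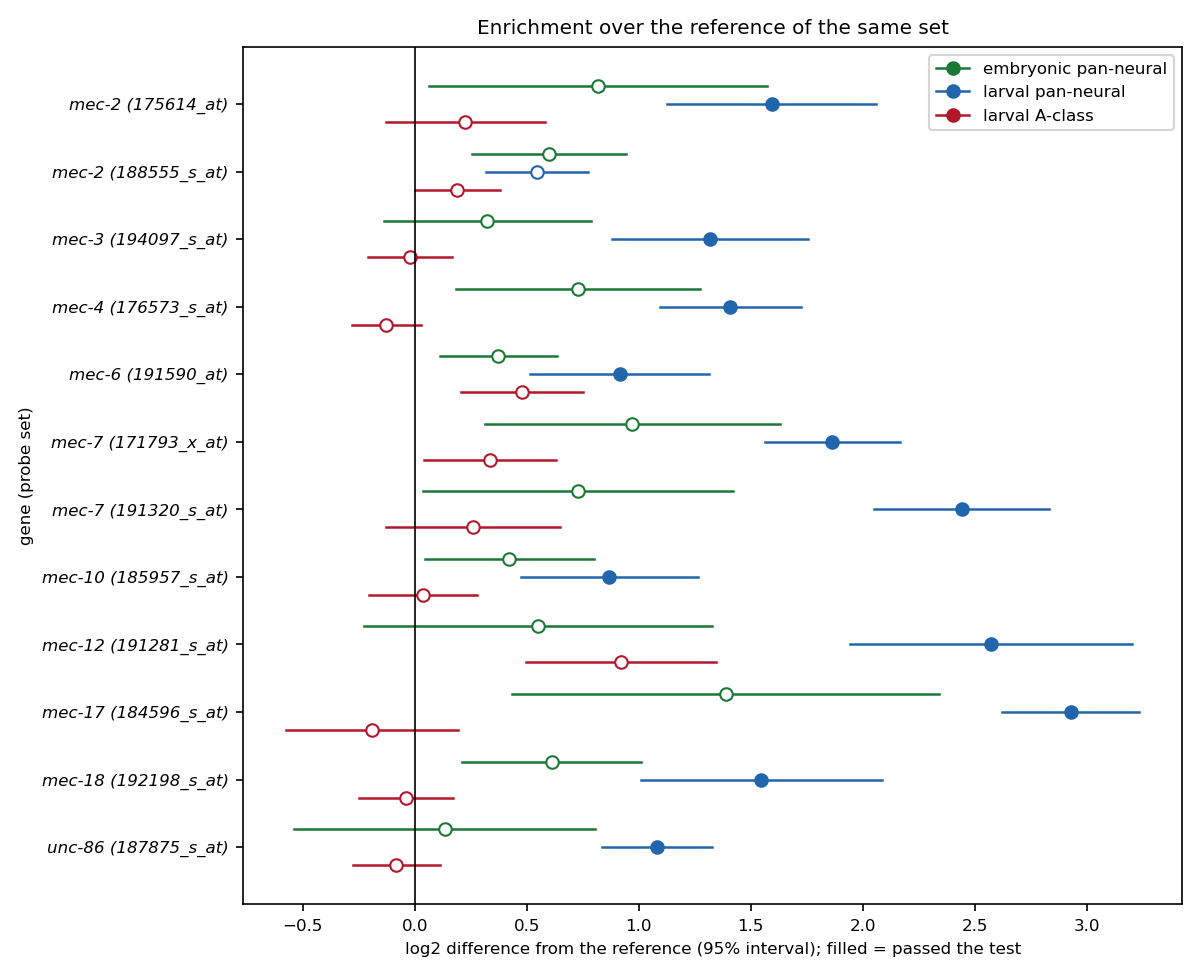
Enrichment over the reference (x axis, log2 difference with its 95% interval) of each probe set in all 3 neuronal samples; filled points passed the test and open points did not. The 11 filled points are all larval pan-neural, the embryonic points lie between 0.13 and 1.39, and the A-class points lie between -0.19 and 0.92.

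The A-class sample served as the contrast of a different, cholinergic neuron class. None of the 12 probe sets passed in limma, where 0.776% of all passed upward and 0.115% downward. There were 7 differences above 0 and 5 below, with a median of 0.11 beside -0.01 over all probe sets. At an unadjusted p under 0.05, 3 lay above the reference, 1 each of mec-6, mec-7 and mec-12, against 7.54% of all probe sets. For 1 of the 12, mec-12, the A-class arrays lay above all 5 references, which 3.92% of all probe sets showed.

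mec-12 stood out from the other members here. The study, with its own test, lists mec-12 as enriched 1.9-fold in these same A-class arrays, while it did not pass in limma. A mec-12::GFP reporter in the study was also expressed in A-class motor neurons, among other cells. Its A-class arrays read 8.67, 8.13, 8.46 and 8.48 and its references, as normalized with this set, 7.22, 7.37, 7.16, 7.98 and 7.87. The 4 A-class values lay close together above the highest reference, and the difference was 0.92 ± 0.19 (SE, 1.89-fold, adjusted p = 0.0308). After quantile normalization of all hybridizations together mec-12 passed in limma, with 1.10 (adjusted p = 0.00592). In that setting 596 of all probe sets passed in either direction, beside 175 upward and 26 downward in the main fit. Its references were those normalized with the pan-neural set. mec-6, at low intensity, read 5.07, 4.67, 5.24 and 5.08 against 4.67, 4.39, 4.36, 4.58 and 4.67, a difference of 0.48 ± 0.12 (adjusted p = 0.0671).

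mec-17 and mec-7, both highly enriched with the pan-neural tag, did not pass in the A-class sample. mec-17 read 9.07, 8.22, 8.31 and 8.23 against 8.55, 8.74, 8.46, 8.67 and 8.83, so that A-class replicate 1 was above all references and the other 3 below all of them. The difference was -0.19 ± 0.17, with an interval from -0.57 to 0.19. mec-7 on 191320_s_at read 8.81, 8.01, 7.92 and 8.04 against 7.82, 7.89, 7.78, 8.09 and 8.09, again with replicate 1 alone high, for a difference of 0.26 ± 0.17. Without A-class replicate 1 these differences were -0.39 for mec-17 and 0.05 for mec-7. That array alone had been washed with another protocol, and the part of the wash in its values was not tested.

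The intervals of mec-3, mec-4, mec-10, mec-18 and unc-86 all held 0 in the A-class sample. mec-18 read 6.38, 6.35, 6.36 and 6.29 inside a reference range of 6.13 to 6.63 and differed by -0.04 ± 0.09. mec-4 differed by -0.13 ± 0.07, mec-3 by -0.02 ± 0.08, unc-86 by -0.08 ± 0.09 and mec-10 by 0.04 ± 0.11, and the intervals of these 5 genes reached no further than 0.28 in either direction. After joint quantile normalization mec-10 had -0.43 (adjusted p = 0.0224 in limma), mec-18 -0.37 (adjusted p = 0.0188) and mec-3 -0.25 (adjusted p = 0.11), none of which passed. In that setting the A-class arrays were set against the references as normalized with the pan-neural set. Those same hybridizations had means of 6.64 there and 6.09 in the A-class set for mec-10. They had 6.80 and 6.38 for mec-18, and 5.86 and 5.49 for mec-3. The part of this offset in the 3 values was not tested. mec-2 differed by 0.23 ± 0.16 and 0.19 ± 0.09 on its 2 probe sets, and mec-7 on 171793_x_at by 0.34 ± 0.13. The day of hybridization and the group cannot be told apart here, since no day held both A-class and reference arrays.

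The difference between both larval enrichments was tested directly, each array being set against the mean of its own references. Of the 12 probe sets 10, of 9 genes, were more enriched with the pan-neural tag than with the A-class tag, against 3.76% of all probe sets, and none was less enriched, against 1.95%. The study lists these genes as enriched in the same pan-neural arrays, so this count is not independent evidence. mec-17 led with 3.12 ± 0.22 (adjusted p = 0.000111), followed by mec-7 with 2.18 ± 0.25 and 1.53 ± 0.11, mec-12 with 1.65 ± 0.23, mec-18 with 1.58 ± 0.25, mec-4 with 1.54 ± 0.13, mec-2 (175614_at) with 1.37 ± 0.14, mec-3 with 1.34 ± 0.21, unc-86 with 1.16 ± 0.12 and mec-10 with 0.83 ± 0.15 (adjusted p = 0.00951). In this order mec-17 and mec-7 (191320_s_at) stood apart from what followed by more than the standard errors, while neighbours from mec-12 (1.65) to mec-3 (1.34) did not. Both enrichments were taken over the same 5 reference hybridizations, whose spread the standard errors leave out. mec-6 (0.44 ± 0.20, interval -0.03 to 0.90, adjusted p = 0.219) and mec-2 on 188555_s_at (0.36 ± 0.10, interval 0.12 to 0.60, adjusted p = 0.0595) did not pass. After joint quantile normalization mec-2 on 188555_s_at passed with 0.63 (adjusted p = 0.00476 in limma). There the A-class arrays were set against the references as normalized with the pan-neural set. Those had a mean of 6.70 on this probe set, beside 6.35 in the A-class set, and the part of this offset was not tested.

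These larval samples also differed in transgene, in tag copy and in day of hybridization, which cannot be told apart from the neurons tagged. With day as a random block 6 of the 12 passed in limma, mec-3, mec-10, mec-12 and mec-18 being lost with adjusted p of 0.0526, 0.0924, 0.0311 and 0.0482. Of all probe sets 454 passed in either direction there, beside 847 upward and 440 downward in the main fit. Without larval pan-neural replicate 1 or replicate 3, 6 passed as well, the same 4 genes being lost, beside 792 and 537 of all. Of the single arrays left out in turn (12), 10 ended the call of mec-10, 6 that of mec-3 and 6 that of mec-18, the latter pair for pan-neural replicates 1 and 3 and each A-class replicate. Markers of other tissues passed as less enriched with the pan-neural than with the A-class tag for 5 of 8 hypodermis, 4 of 10 intestine and 1 of 14 body wall muscle probe sets, beside 1.95% of all. The mean log2 intensity of the hypodermis probe sets per array was 8.70 to 9.07 in the pan-neural sample beside 9.43 to 10.1 in its reference, and 9.75 to 10.2 in the A-class sample beside 9.34 to 10.04 in its own, and the part of these tissues in the difference was not tested.

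**Figure D4:**
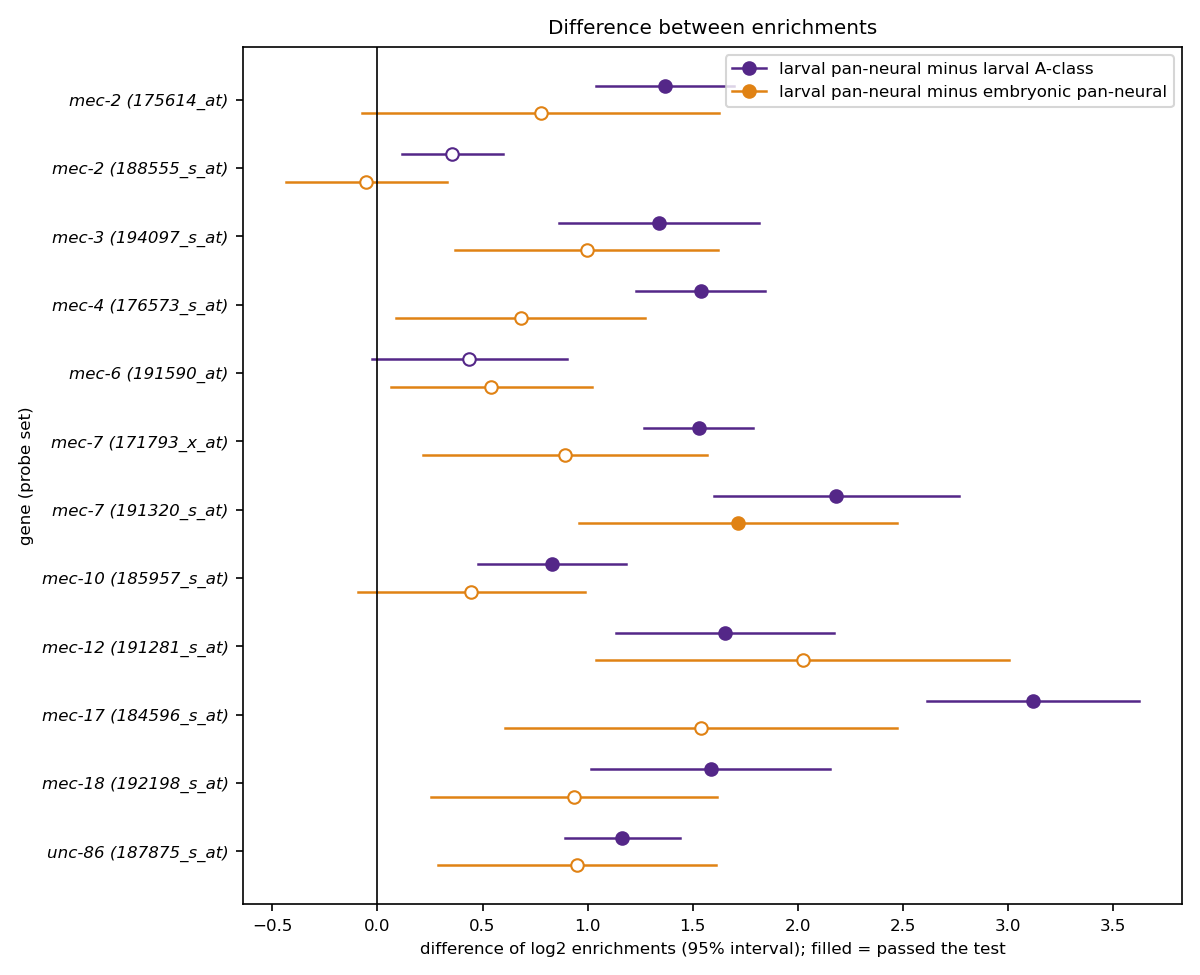
Difference between enrichments (x axis, log2, with its 95% interval) of each probe set, for larval pan-neural minus larval A-class and for larval pan-neural minus embryonic pan-neural; filled points passed the test. The pan-neural minus A-class difference of mec-17 is 3.12, and the single filled point of the comparison between stages is that of mec-7 (191320_s_at) at 1.72.

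Between the embryonic and the larval pan-neural sample 11 of 12 probe sets had the larger enrichment in larvae, against 46.2% of all probe sets. The study lists these genes as enriched in the same larval pan-neural arrays, so this count is not independent evidence. The 1 probe set that passed in limma was mec-7 on 191320_s_at, with a difference of 1.72 ± 0.35 (adjusted p = 0.00586), where 3.13% of all probe sets passed upward and 1.88% downward. mec-12 had a larger difference of 2.02 ± 0.46 and an adjusted p of 0.0106. mec-17 differed by 1.54 ± 0.44 (adjusted p = 0.0324), mec-3 by 0.99 ± 0.29 (adjusted p = 0.0387), unc-86 by 0.95 ± 0.31 (adjusted p = 0.0589) and mec-18 by 0.93 ± 0.32 (adjusted p = 0.0693). Those for mec-7 (171793_x_at), mec-2 (175614_at), mec-4, mec-6 and mec-10 lay between 0.45 and 0.89, and mec-2 on 188555_s_at had -0.05 ± 0.18.

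The call of mec-7 between stages lay near the threshold and did not hold in every fit. It was lost in 8 of 15 fits that left out an array: larval pan-neural replicate 1 or 3, larval reference 1, 2 or 3, embryonic pan-neural replicate 2 or 3, or embryonic reference 3, with differences from 1.57 to 1.73. With day as a random block the mec-7 difference was 1.57 (adjusted p = 0.0257 in limma) and none of the 12 passed, beside 768 of all probe sets in either direction. After joint quantile normalization mec-7 (191320_s_at) had 1.64 (adjusted p = 0.0105) and mec-12 passed in its place with 1.91 (adjusted p = 0.00863). Without larval pan-neural replicate 2, 4 probe sets passed, mec-3 (1.27), mec-12 (2.31) and mec-18 (1.30) beside mec-7. Stage, cell culture, sorting against pull-down and the kind of reference change together between these samples and cannot be told apart.

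Further genes named for the touch-insensitive (mec) phenotype did not pass upward. The mec members were those that the study lists as enriched in these larval pan-neural arrays, so the split between both lists is not independent evidence. The 6 genes mec-1, mec-5, mec-8, mec-9, mec-14 and mec-15 had 9 probe sets, with a median of 0.27 in the larval pan-neural sample. None of them passed upward there, against 6.08% of all probe sets, and 1 passed downward, against 3.34%. The exception was mec-5, a collagen gene used outside the touch neuron, which on 175711_at fell by 1.09 ± 0.21 (adjusted p = 0.00708), with values of -0.55 ± 0.20 and 0.13 ± 0.19 on its other probe sets. mec-15, an F-box protein gene, had 0.56 ± 0.16 (adjusted p = 0.0422) in the larval and 0.55 ± 0.15 in the embryonic sample. mec-1 and mec-9, which encode secreted proteins around the touch neuron, had 0.40 ± 0.13 and 0.29 ± 0.13, mec-14 had 0.27 ± 0.09, and mec-8, which encodes an RNA-binding protein, had 0.30 ± 0.19 and 0.26 ± 0.23. For mec-9 the mean log2 intensity was only 4.06 in the larval reference and 4.35 in the pan-neural sample, where changes are rough. None of the 9 passed in the embryonic or the A-class sample.

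Regulators of touch neuron fate other than unc-86 and mec-3 were mostly near the reference. The 9 genes lin-32, alr-1, vab-15, egl-5, egl-44, egl-46, sem-4, zag-1 and lin-14 had 14 probe sets. None of these passed upward in the embryonic or the A-class sample, against 1.96% and 0.776% of all probe sets. In the larval pan-neural sample 2 passed upward, against 6.08% of all. They were vab-15, an Msx-type homeobox gene, with 1.59 ± 0.23 (adjusted p = 0.00135, 174248_at), and alr-1, an aristaless-type homeobox gene, with 1.31 ± 0.22 (adjusted p = 0.00333, 174306_at). Second probe sets of both genes gave 0.25 ± 0.13 and -0.08 ± 0.10. In the embryonic sample the same vab-15 probe set had -1.23 ± 0.22 (adjusted p = 0.0119), and the difference between the stages, 2.82 ± 0.34 (adjusted p = 0.000183), passed.

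egl-44, a TEAD-type factor gene that holds touch neuron fate off in other cells, leaned the other way. Its probe set 175340_at had -1.01 ± 0.23 (adjusted p = 0.0145) in larvae and -1.12 ± 0.22 (adjusted p = 0.0147) in embryonic cells, past 1.5-fold but not past the adjusted p. Its other probe set, 193230_at, had -0.20 ± 0.17 (adjusted p = 0.508) in larvae and -1.25 ± 0.27 (adjusted p = 0.0224) in embryonic cells. Its partner egl-46 had 0.15 ± 0.17 and -0.06 ± 0.15 in larvae. The larval pan-neural values of lin-32, egl-5, sem-4, zag-1 and lin-14 lay between -0.04 and 0.52, none of which passed.

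Most probe sets of a list of other genes that touch neurons use passed upward in the larval pan-neural sample. Of 13 probe sets of 7 genes (unc-24, ptl-1, deg-3, des-2, eat-4, mtd-1 and crt-1) 10 passed there, 1 in the embryonic and none in the A-class sample, and 10 were more enriched with the pan-neural than with the A-class tag. Over all probe sets these shares were 6.08%, 1.96%, 0.776% and 3.76%. The tau-like gene ptl-1 was enriched by 1.21 ± 0.18 to 2.46 ± 0.22 on its 4 probe sets, and the vesicular glutamate transporter gene eat-4 by 2.55 ± 0.15 and 1.49 ± 0.13. mtd-1, a gene named for its dependence on mec-3, had 1.93 ± 0.20 (adjusted p = 0.000227). The acetylcholine receptor subunit genes deg-3 and des-2 had 1.67 ± 0.13 and 0.81 ± 0.15, and 2.11 ± 0.22 and 0.25 ± 0.11, on their probe sets, and deg-3 (175049_s_at) was the single embryonic call with 1.11 ± 0.17 (adjusted p = 0.00672). unc-24, a stomatin-like gene, had 1.04 ± 0.23 and missed the threshold at an adjusted p of 0.0113, and the calreticulin gene crt-1 had -0.19 ± 0.22. Most of these genes serve other neurons too.

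**Figure D5:**
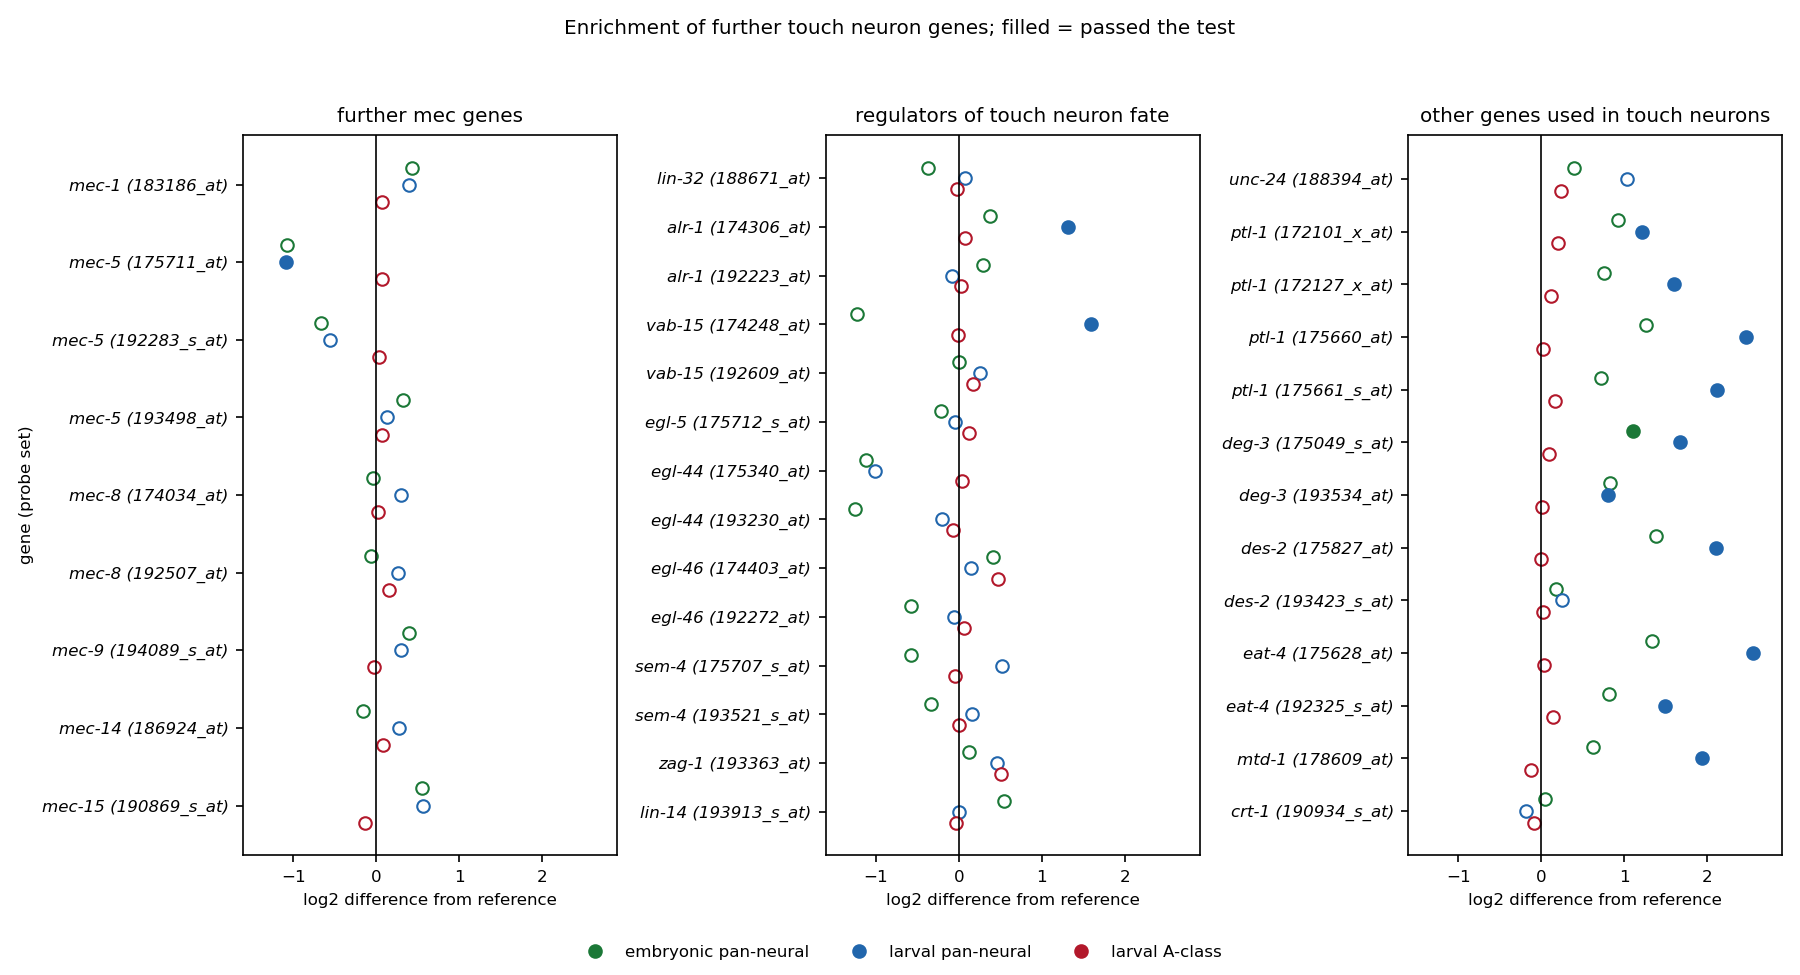
Enrichment over the reference (x axis, log2) of every probe set of 3 further lists, in all 3 neuronal samples; filled points passed the test. Filled larval pan-neural points gather among the other genes used in touch neurons (10 of 13), while the mec list has a single one, mec-5 at -1.09, and the regulators have vab-15 and alr-1.

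The genes most like the touch receptor neuron genes over the 10 neuronal arrays were sought among 884 probe sets of other genes with a larval pan-neural enrichment of at least 1. Likeness was the Pearson correlation with the mean profile of mec-4, mec-7, mec-17 and mec-18, each array being set against the mean of its own references. The 6 nearest genes were nlp-6 (r = 0.994), nlp-91 (0.992), T19D7.5 (0.988), ins-17 (0.988), nssp-34 (0.986) and flp-1 (0.985). Of these nlp-6, nlp-91, ins-17 and flp-1 encode neuropeptides or insulin-like peptides. Their larval pan-neural enrichments ran from 1.67 ± 0.15 for nssp-34 to 3.36 ± 0.36 for flp-1, and their A-class values from -0.29 to 0.36. The 10 arrays share references within a set, and the coefficients reflect mainly the step between the larval pan-neural arrays and the others, so they are given as a description without a test.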

How the data were processed

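The deposited values are RMA intensities on a linear scale, which the authors computed in 3 sets of arrays with software whose version is not stated in the sources used here. Because the larval references occur in both larval sets as the same hybridizations, 24 columns hold 19 independent arrays. RNA was amplified and labelled with biotin. The array records, per the file headers, give fluidics and scanner settings and served for hybridization day, wash protocol and chip lot. The labels give 3 of the 5 larval references the number of the embryonic set, and following the design text they were set against the pan-neural pull-down.

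Intensities were turned to log2, 77 AFFX controls were dropped, and 22548 were tested without a filter on intensity. The array annotation gave 20766 probe sets a single gene, 887 several genes and 895 none, and those with several or none were not named. Each neuronal sample was compared with its own reference by limma 3.58.1 in R 4.3.3 (lmFit, eBayes, tested on simulated data), with p-values adjusted (Benjamini-Hochberg) over all 22548. Calls needed an adjusted p under 0.01 and at least 1.5-fold, the thresholds of the study's methods, which used another test (SAM, not run here). SE is the moderated standard error, SD the spread between arrays, and intervals are at 95%. The contrast between stages came from a single fit of 15 arrays. The probe sets of a gene were compared by two-sided exact permutation tests. P-values measure the spread between arrays that the labels call biological replicates, and the number of arrays and the signal over background limit the precision. A suffix _s_at marks a probe set shared by several transcripts, and _x_at one that can cross-hybridize.

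The 10 genes, the further lists and the marker lists were chosen with earlier results of these data known, so that their counts are not independent evidence. All member probe sets are described, every gene of the 3 further lists is named, and the 6 nearest genes were taken by rank. Alternatives were the replicate number as a block, hybridization day as a random block, a minimum mean log2 intensity of 6, joint quantile normalization, eBayes with trend and robust variance, and leaving out each array. Arrays of the shared day alone were added after seeing the data. Sequences and genome positions were not used here. Figures were drawn with matplotlib.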

Additional observations from a re-analysis of the deposited data

Results flagged for a closer look

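Single arrays far from the rest of their group were found in 5 of the 48 groups of 4 or 5 arrays examined, where chance gives about 1 in 20. The probe sets share arrays and the larval reference hybridizations enter in both larval sets, so the 48 are not independent trials. For each the gap to the nearest array is given as a share of the range of its group. In the A-class sample replicate 1 was high for mec-17 (0.887) and for mec-7 on 191320_s_at (0.857), the array with another wash protocol. In the embryonic reference replicate 4 was low for mec-6 (0.871, 5.90 against 6.11 to 6.14) and replicate 3 was low for mec-10 (0.842, 5.22 against 5.73 to 5.82). In the larval reference of the pan-neural set replicate 2 was low for unc-86 (0.737, 7.15 against 7.34 to 7.40).

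Enrichments that differed between samples in a direct limma test were those of 10 probe sets between the larval pan-neural and the A-class sample: mec-17 (3.12), mec-7 (2.18 and 1.53), mec-12 (1.65), mec-18 (1.58), mec-4 (1.54), mec-2 on 175614_at (1.37), mec-3 (1.34), unc-86 (1.16) and mec-10 (0.832), all on the log2 scale and all higher with the pan-neural tag. The larval and the embryonic pan-neural enrichment differed for mec-7 on 191320_s_at (1.72, higher in larvae).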

How the results depend on the processing

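The count of 0 of 12 in the embryonic comparison held in limma under all 5 alternatives and the 7 fits without an array (0 to 0), and that of 0 in the A-class comparison under the 9 fits without an array (0 to 0) and all alternatives but joint quantile normalization, where 1 passed. The replicate numbers did not pair the samples: deviations of same-numbered arrays correlated at 0.05 to 0.33 in the embryonic, -0.23 to 0.15 in the larval pan-neural and -0.42 to -0.08 in the A-class comparison, and not every array correlated best with its own number. With them as a replicate block 7 passed in the larval pan-neural comparison (11 without the block), 6 in the pan-neural against A-class comparison (10 without) and 3 between stages (1 without). Over all probe sets 983, 489 and 555 passed in either direction with the block, in the same order. Without it 1372, 847 and 705 passed upward and 754, 440 and 423 downward. Between stages the count was 0 with day as a random block and 2 each with the intensity filter and with trend and robust variance. In these 3 settings 768, 1236 and 1093 of all probe sets passed in either direction. Pan-neural against A-class it was 6 with day as a random block, beside 454 of all. On the shared day, added after seeing the data, 0 passed in the larval pan-neural comparison, beside 0 of all, where only 4 arrays were left. Counts without an array ran from 8 to 11 in the larval pan-neural comparison, from 6 to 10 in the pan-neural against A-class comparison and from 0 to 4 between stages. Signs turned only for values that had not passed: in the A-class comparison mec-3 (0.00011) and mec-18 (0.023) with the replicate block, and mec-2 on 188555_s_at (-0.044), mec-10 (-0.43) and unc-86 (0.22) with joint normalization, and between stages mec-2 on 188555_s_at (0.069) with the block. Without an array the ranges that crossed 0 were -0.23 to 0.43 for unc-86 in the embryonic, -0.066 to 0.043 for mec-3, -0.048 to 0.090 for mec-10 and -0.10 to 0.023 for mec-18 in the A-class comparison, and -0.14 to 0.053 for mec-2 on 188555_s_at between stages. Joint normalization set the A-class arrays against references normalized with the pan-neural set. Apart from fewer arrays or probe sets tested, the cause of these shifts was not tested. No array bears counts, so signal over background is the limit: mec-6 lay at a mean log2 intensity of 4.54 in the A-class set's reference, where changes are rough.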
